A study of Mus musculus with 11 samples.

Results

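The interferon response genes are transcripts that cells switch on when interferon binds its receptor. The 35 genes described here were listed by name for their known roles in that response, with no threshold on a measured value. A gene was followed on the array row that carries its symbol alone, and where several rows did, on the row with the highest mean. By this rule 31 of the 35 genes were measured, among 19937 genes in all. Isg15, Gbp2 and Igtp had only rows shared with another gene, and no row was named Ifi44, so these 4 were not analysed here.

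Splenic T-cell RNA was measured on 11 Affymetrix Mouse Gene 1.0 ST arrays, which probe whole mouse transcripts. The exponential group (5 arrays) came from Lckpr-TCL1A+/- mice, hemizygous for human TCL1A under the proximal Lck promoter, which is active early in T-cell development, at an average age of 15 months, with over 80% tumor cells in blood and over 90% in spleen and a mean lymphocyte doubling time of 12 days. The chronic group (3 arrays) came from mice of the same genotype at an average age of 12 months with 30 to 70% tumor cells. The wild-type group (3 arrays) came from age-matched C57BL/6 mice, and each of its arrays held a pool of 3 animals. The labels give the leukemia cells as enriched for CD8+ and the wild-type cells as CD3+ pan-T-cells, so genotype and cell selection cannot be told apart in any difference from wild type. Between the phases, average age and tumor-cell share differ too, so they cannot be told apart from phase. In bulk RNA, fewer cells of a type and less RNA per cell cannot be told apart either.

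Type I interferons act through the receptor chains IFNAR1 and IFNAR2 and the kinases JAK1 and TYK2, and lead to a complex with STAT2 and IRF9 that binds a DNA element called ISRE. Interferon gamma, made by activated T-cells and NK cells, acts through its own receptor and the kinases JAK1 and JAK2, and many of its target genes carry the GAS element. The target genes encode RNA sensors, enzymes that degrade or block foreign RNA, GTPases that attack intracellular parasites, and feedback inhibitors of the receptor.

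All levels below are log2 values, so a difference of 1 is 2-fold. Every array had the same distribution, with a median row at 2.30. Exponential array 4 stood apart on marker genes and went against its label, with Cd8a at 2.96 against 7.94 to 8.20 on the other 4 exponential arrays, and with Cd4 at 5.18 against 2.15 to 2.44. The neutrophil list (5 of 5 genes measured) had a mean level of 5.96 on that array and of 3.27 to 4.24 on the other exponential arrays, against 2.29 to 2.45 on chronic and 2.24 to 2.47 on wild-type arrays. The macrophage and monocyte list (8 of 9 measured) lay between 2.64 and 3.05 on exponential arrays, between 2.05 and 2.36 on chronic arrays and between 2.26 and 2.36 on wild-type arrays. In this list Lyz2 differed most, at 4.84 to 6.36 on exponential, 2.13 to 3.62 on chronic and 2.35 to 3.31 on wild-type arrays. Csf1r, Cd68, Itgam, Cd14 and Fcgr1 overlapped between exponential and wild-type arrays. The part of these other cells in the results was not tested, and the main results that exponential array 4 moves are given with and without it.

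The interferon response genes went in both directions from wild type, few of their differences passed a test, and levels differed widely between single leukemias. Called genes are those that had, in limma, a Benjamini-Hochberg adjusted p (over all 19937 genes) below 0.05 and changed 1.5-fold or more. In exponential against wild type 0 of the 31 members were called, beside 0.416% of all genes, and in chronic against wild type 0 were called, beside 0.456%. In exponential against chronic 0 members were called, and of all genes 0% were. With all 8 leukemia arrays as a group, 1 member was called, Iigp1, which was lower in leukemia, beside 0.722% of all genes. The comparisons with wild type share their 3 control arrays. The median difference of the members was 0.07 in exponential against wild type, 0.03 in chronic against wild type and 0.04 in all leukemias against wild type, where the median over all genes was 0.01, 0.00 and 0.00. Regardless of sign, the median difference was 0.210, 0.222 and 0.250 for the members in these comparisons, against 0.110, 0.131 and 0.105 for all genes. Members above and below zero numbered 17 and 14 in both phases.

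At an unadjusted limma p below 0.05 and a change of 1.5-fold or more, 3 members passed in exponential against wild type, where 3.21% of all genes did, and 7 passed in chronic against wild type, where 5.16% did. The 3 were Rtp4, which was higher, and Isg20 and Iigp1, which were lower. Of the 7, Ifit2, Ifit3, Rtp4, Xaf1, Usp18 and Irgm1 were higher and Iigp1 was lower. Between the phases 0 members passed, beside 1.08% of all genes. Without exponential array 4, 7 members passed in exponential against wild type, beside 4.02% of all genes.

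**Figure D1:**
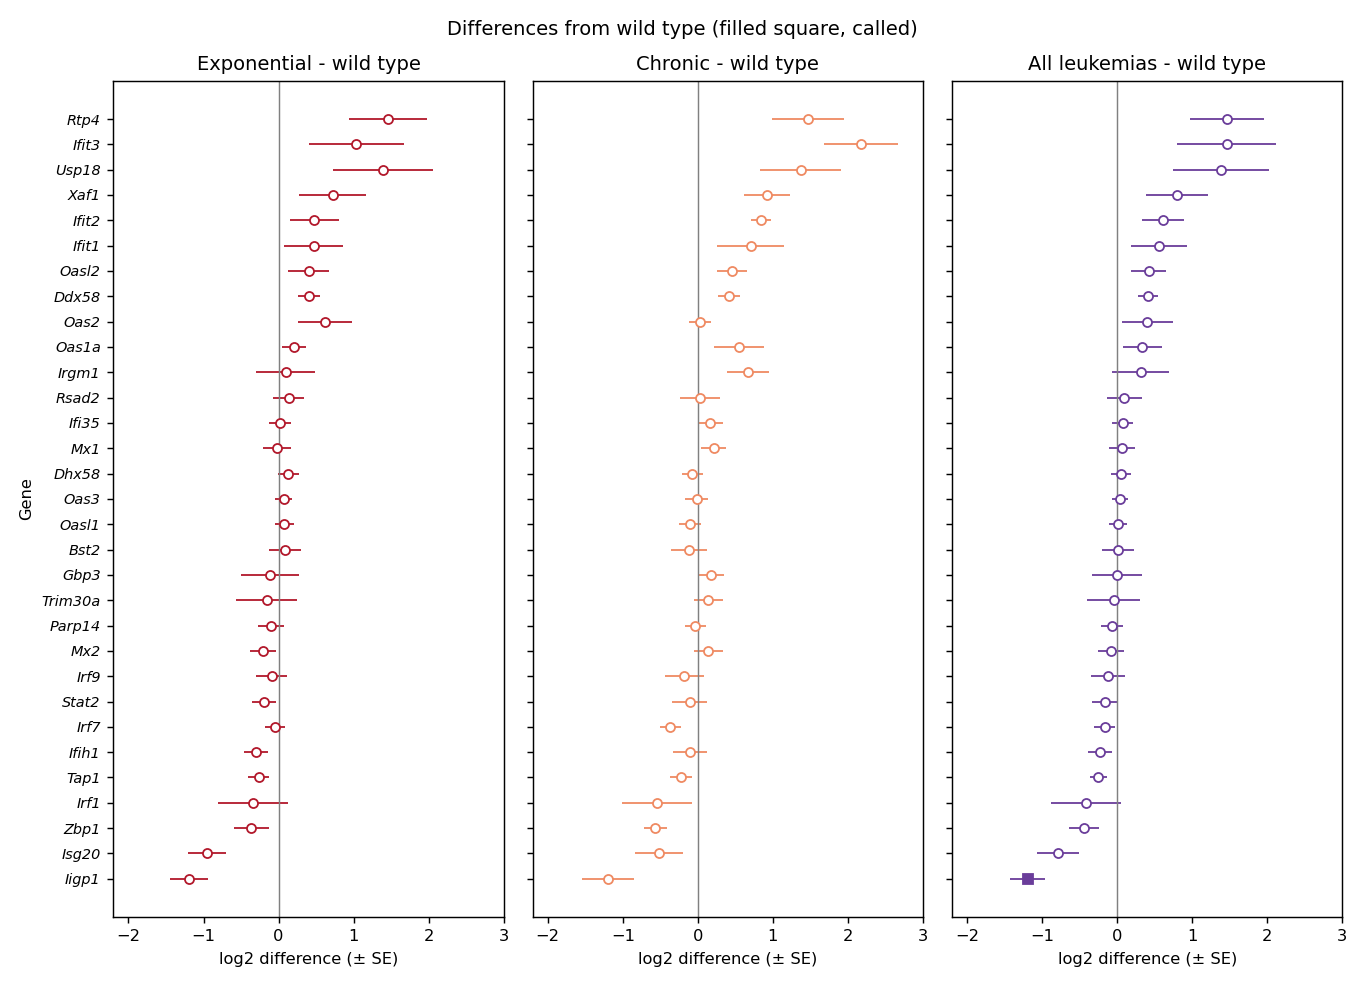
Difference from the wild-type mean (log2, limma, bars are SE) of the 31 measured interferon response genes for the exponential arrays, the chronic arrays and all leukemia arrays, with filled squares for called genes. Iigp1 in all leukemias is the single filled point, at −1.19, and the points at the top of each panel are Rtp4, Ifit3 and Usp18.

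Among the IFIT and ISG effectors, the IFIT genes encode proteins that bind foreign RNA and hinder its translation. Ifit3 stood at 4.33, 5.87, 5.84, 2.76 and 4.89 on exponential arrays 1 to 5, at 6.69, 6.27 and 4.68 on chronic arrays 1 to 3, and at 3.96, 3.96 and 3.20 on wild-type arrays 1 to 3. All 3 chronic arrays and 4 of 5 exponential arrays lay above every wild-type array, and exponential array 4 lay below all of them. The difference was 2.18 ± 0.49 (SE) in chronic against wild type, a 4.52-fold higher level that was not called (limma adjusted p = 0.132). Exponential against wild type gave 1.03 ± 0.63 (limma adjusted p = 0.685), and 1.53 without exponential array 4. Without chronic array 3 the chronic difference was 2.77, which was called (limma adjusted p = 0.0167).

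Ifit2 had 5.17, 5.75, 5.69, 4.11 and 5.20 on exponential arrays 1 to 5, then 5.75, 5.45 and 5.44 on the chronic arrays, against 4.80, 4.72 and 4.61 in wild type. The pattern was that of Ifit3, with exponential array 4 alone below wild type. Its difference was 0.84 ± 0.13 (SE) in chronic against wild type (limma adjusted p = 0.0553), the lowest adjusted p of the members in that comparison, and 0.48 ± 0.32 in exponential against wild type (limma adjusted p = 0.723), or 0.75 without exponential array 4 (limma adjusted p = 0.0763). In all leukemias against wild type Ifit2 differed by 0.61, which was not called, and by 0.79 without exponential array 4, which was (limma adjusted p = 0.0199). Ifit1, which recognizes RNA with foreign caps, ranged from 2.48 to 3.87 on exponential arrays and from 2.75 to 4.04 on chronic arrays, against 2.07 to 3.61 in wild type, so its groups overlapped. Ifit3 and Oas1a have near-identical gene copies, Ifit3b and Oas1g, so their rows may hold signal of both.

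Isg20, an exonuclease that degrades single-stranded RNA, ran the other way. It was at 3.10, 2.56, 3.07, 3.62 and 3.11 on exponential arrays, at 2.92, 3.80 and 3.84 on chronic arrays, and at 3.80, 3.70 and 4.62 on wild-type arrays. Every exponential array lay below wild type, chronic arrays 2 and 3 lay within its range, and chronic array 1 lay below it. Isg20 differed by −0.95 ± 0.26 (SE) in exponential against wild type (limma adjusted p = 0.205) and by −0.52 ± 0.32 in chronic against wild type (limma adjusted p = 0.651), where leaving out chronic array 1 or wild-type array 3 gave −0.22 or −0.23.

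Of the signaling and transcription factor genes, Usp18 showed the widest range. Its protein removes ISG15 from other proteins and blocks signaling at IFNAR2. Usp18 was measured at 3.98, 5.74, 4.13, 2.62 and 5.93 in the exponential group, at 5.48, 4.80 and 3.09 in the chronic group, and at 2.76, 3.41 and 3.09 in wild type. Of the 8 leukemia arrays, 6 lay above all wild-type arrays, chronic array 3 lay within their range and exponential array 4 below it. The difference was 1.39 ± 0.67 (SE) in exponential against wild type (limma adjusted p = 0.553) and 1.37 ± 0.54 in chronic against wild type (limma adjusted p = 0.403). Without exponential array 4 the exponential value was 1.86, and without chronic array 3 the chronic value was 2.05, which was called (limma adjusted p = 0.0314). Without chronic array 1 the chronic value was 0.86 (limma adjusted p = 0.652).

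The subunits of the complex that binds ISRE showed no such range. Stat2 lay between 2.56 and 3.05 in exponential arrays and 2.46 and 3.09 in chronic arrays, against 2.65 to 3.32 in wild type. Irf9 lay between 3.04 and 3.93 in exponential arrays and 2.91 and 4.01 in chronic arrays, against 3.49 to 3.81 in wild type. Irf7, a transcription factor that amplifies type I interferon production, was dim, with 2.43 to 2.89 on exponential arrays, 2.29 to 2.38 on chronic arrays and 2.49 to 2.93 on wild-type arrays. Its difference was 0.32 ± 0.11 (SE) in exponential against chronic (limma adjusted p = 0.777). Irf1, a transcription factor induced through GAS, ranged from 3.71 on exponential array 4 to 6.24 on exponential array 5, from 4.16 to 6.04 on chronic arrays, and from 5.10 to 5.91 in wild type. A second row of Irf1 had a lower mean, 3.54, and was lowest on chronic array 3 (2.90), with 3.10 on exponential array 4.

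None of the RNA and DNA sensors was called in any comparison, and Ddx58 and Zbp1 differed most from wild type. Ddx58, which encodes the RNA sensor RIG-I, was at 5.91, 6.36, 6.05, 5.91 and 6.41 on exponential arrays and at 6.22, 6.27 and 5.90 on chronic arrays, against 5.68, 5.87 and 5.62 on wild-type arrays. All 8 leukemia arrays lay above all 3 wild-type arrays, exponential array 4 included, by a difference of 0.41 ± 0.13 (SE) in all leukemias against wild type, a 1.33-fold higher level that was not called (limma adjusted p = 0.235). Across all genes, 1.67% had every leukemia array above and 1.65% every leukemia array below wild type, and Ddx58 and Iigp1 were the single members in each direction. Zbp1, a sensor of Z-form nucleic acids, differed by −0.57 ± 0.15 in chronic against wild type (limma adjusted p = 0.198), with 4.78 to 5.03 on chronic arrays against 5.29 to 5.73 in wild type, and with 4.56 to 5.64 on exponential arrays. Ifih1, which encodes the sensor MDA5, lay between 4.59 and 4.91 on exponential arrays and between 4.63 and 5.24 on chronic arrays, against 4.61 to 5.29 in wild type. Dhx58, a regulator of both sensors, lay below the median row on 10 of 11 arrays.

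Within the OAS family, whose enzymes make oligoadenylates that switch on RNase L, the 5 measured genes all had a difference above zero in exponential against wild type, from 0.07 for Oas3 to 0.62 for Oas2, and none was called. In chronic against wild type 3 were above zero and 2 below, with a median of 0.03. Oas2 was at 2.69, 3.00, 2.66, 2.64 and 4.37 on exponential arrays and at 2.69, 2.52 and 2.22 on chronic arrays, against 2.39, 2.44 and 2.52 in wild type. Exponential array 5 stood alone for this gene. Oas1a was highest on chronic array 1, at 4.24, and Oasl2 on exponential array 2, at 4.33. Oas3 and Oasl1 stayed between 2.02 and 2.68 on all arrays.

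Of the MX and other antiviral genes, Rtp4 and Xaf1 followed Usp18. Rtp4, which encodes a chaperone of membrane receptors, was at 5.39, 7.20, 7.00, 5.41 and 7.37 on exponential arrays and at 7.34, 6.62 and 5.47 on chronic arrays, against 4.89, 5.65 and 4.49 in wild type. Exponential arrays 1 and 4 and chronic array 3 lay within the wild-type range, and the other 5 leukemia arrays lay above it. Its mean differed by 1.46 ± 0.52 (SE) in exponential against wild type (limma adjusted p = 0.359) and by 1.47 ± 0.47 in chronic against wild type (limma adjusted p = 0.297). With each array left out in turn, exponential array 4 included, the exponential difference lay between 1.20 and 1.78 and was never called.

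Xaf1, an antagonist of the apoptosis inhibitor XIAP, had 3.72, 5.08, 4.67, 3.33 and 5.54 in the exponential group and 4.83, 5.23 and 3.95 in the chronic group, against 3.88, 3.85 and 3.52 in wild type. The low arrays were again exponential 1 and 4 and chronic 3, and chronic 3 lay just above wild type. The difference was 0.72 ± 0.45 in exponential and 0.92 ± 0.30 (SE) in chronic against wild type (limma adjusted p = 0.691 and 0.308), and the chronic value was 1.28 without chronic array 3, which was called (limma adjusted p = 0.0468). Leaving out chronic array 2 gave 0.64 for the chronic group. For the exponential group, leaving out exponential array 5 gave 0.45 and leaving out exponential array 4 gave 1.01, which was not called. Trim30a, a regulator of innate signaling, lay between 7.40 and 8.11 on 7 leukemia arrays and at 6.04 on exponential array 4, against 7.35 to 7.78 in wild type. Mx1 and Mx2, GTPases that block viral replication, were dim, and Mx2 lay below the median row on all 11 arrays. Rsad2 (viperin), Bst2 (tetherin), Ifi35 and Parp14, an ADP-ribosyltransferase, had differences between −0.12 and 0.17 in both comparisons with wild type.

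The IRG and GBP genes encode GTPases, induced mainly by interferon gamma, that act on vacuoles holding parasites. Iigp1 was at 2.31, 1.87, 2.34, 2.29 and 2.12 on exponential arrays and at 2.11, 1.80 and 2.65 on chronic arrays, against 3.24, 4.09 and 2.79 on wild-type arrays. Every leukemia array lay below every wild-type array, and the wild-type arrays differed among themselves by more than the leukemias did. The difference was −1.19 ± 0.24 (SE) in all leukemias against wild type, a 2.28-fold lower level (limma adjusted p = 0.0384), and −1.19 in each phase alone, which was not called (limma adjusted p = 0.101 for exponential and 0.237 for chronic). Leukemia levels lay around the median row of 2.30, and leaving out wild-type array 2 alone made the difference −0.83 and ended the call (limma adjusted p = 0.111). The call was also lost without exponential array 1, 2, 3 or 5, chronic array 1 or 2 or wild-type array 1, at limma adjusted p between 0.0589 and 0.141 and differences between −1.26 and −1.14.

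Irgm1, which directs other GTPases of its family to membranes, was at 3.44, 5.21, 4.66, 3.48 and 4.26 on exponential arrays and at 5.29, 4.74 and 4.34 on chronic arrays, against 3.87, 4.58 and 3.90 in wild type. Exponential arrays 2 and 3 and chronic arrays 1 and 2 lay above wild type, and exponential arrays 1 and 4 below it. Irgm1 differed by 0.67 ± 0.28 (SE) in chronic against wild type (limma adjusted p = 0.426), or 0.42 without chronic array 1, and by 0.09 ± 0.39 in exponential against wild type (limma adjusted p = 0.973), where the sign turned without exponential array 2 (−0.15) or 3 (−0.02) or wild-type array 1 (−0.03) or 3 (−0.01). Gbp3 was lowest on exponential array 4, at 2.95, and highest on exponential array 5, at 5.13, with 4.23 to 4.71 on chronic arrays and 4.15 to 4.54 in wild type. Tap1, which carries peptides to MHC class I, differed by −0.27 ± 0.14 in exponential against wild type (limma adjusted p = 0.607).

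**Figure D2:**
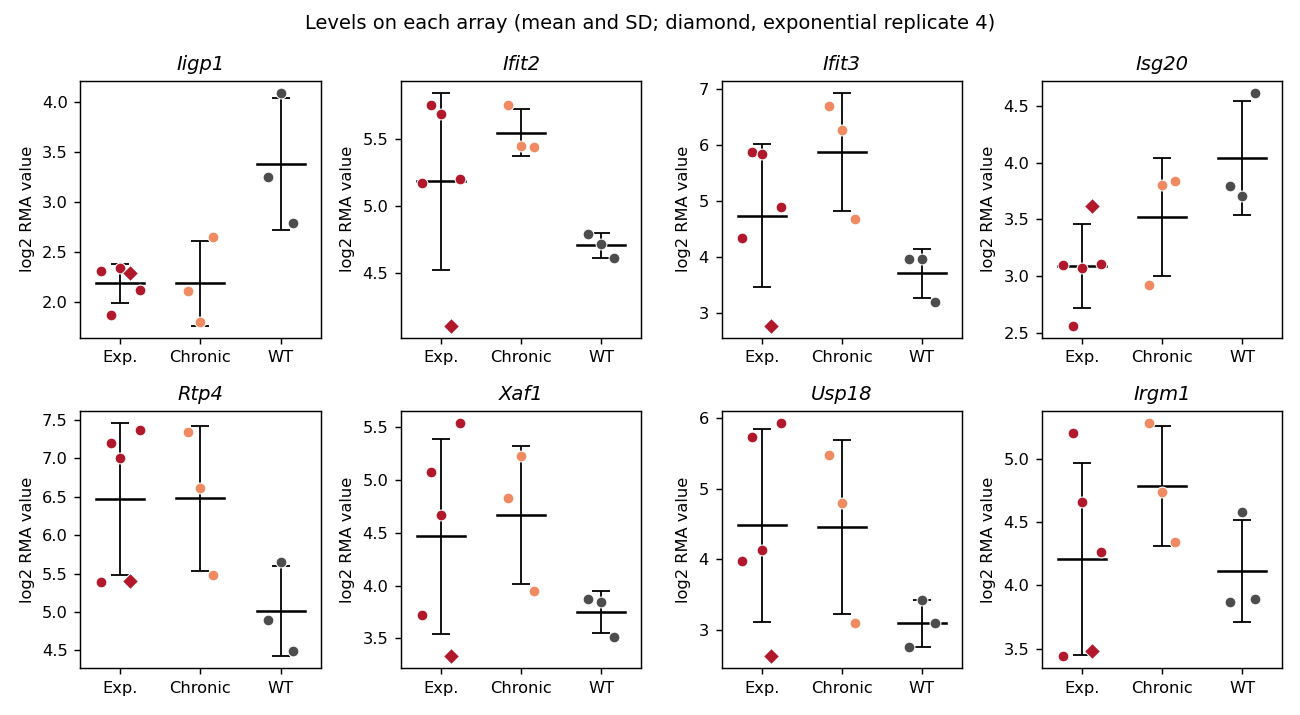
Level (log2 RMA value) of 8 interferon response genes on each exponential (left), chronic (middle) and wild-type (right) array, with lines for the mean and bars for the SD (n = 5, 3 and 3). Iigp1 is lower on all 8 leukemia arrays than on any wild-type array, and the diamond of exponential replicate 4 is the lowest exponential point for Ifit2, Ifit3, Xaf1 and Usp18.

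Few members had groups that did not overlap. In exponential against wild type 2 of 31 members lay wholly higher, beside 3.28% of all genes, and 2 wholly lower, beside 3.5%. In chronic against wild type 4 lay wholly higher, beside 8.28%, and 3 wholly lower, beside 7.52%. Each of these counts exceeded the share of all genes by about 1 gene.

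Spread between leukemias was high for many members. The SD of a member over the 8 leukemia arrays had a median of 0.396, against 0.188 over all genes, and 16 of 31 members (51.6%) were among the 10% of genes with the highest SD. Spread depends on level, and the members had a median level of 3.46 against 2.32 for all genes. With the dimmest 30% of genes left out of the ranking, 13 of 29 members were in the top 10%. This did not match the levels, since the median was then 3.47 for the members and 2.78 for all genes. Without exponential array 4, 12 of 31 members were in the top 10% of all genes. Ifit3 (SD 1.27) and Usp18 (SD 1.23) had a higher spread than 99.5% and 99.4% of all genes, and than 99.1% and 99.5% without exponential array 4.

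The same arrays were high for many members. On exponential arrays 2, 3 and 5, 13, 13 and 18 of the 31 members lay above all wild-type arrays, and 4, 4 and 2 below. Chronic arrays 1 and 2 had 16 and 12 members above and 5 and 6 below. On exponential array 1 and chronic array 3, 8 and 6 members were above and 10 on each below. Exponential array 4 had 4 above and 19 below. Over all genes these shares were 24.6 to 32.0% above and 24.2 to 29.9% below. At least 2-fold above the wild-type mean were 7, 3 and 6 members on exponential arrays 2, 3 and 5 and 8 and 5 on chronic arrays 1 and 2, and 0 on exponential arrays 1 and 4 and chronic array 3, where 0.792 to 2.26% of all genes were. At least 2-fold below it were 4 members on exponential array 4 and 1 or 2 on each other leukemia array, where 0.777 to 1.76% of all genes were. Exponential array 4 was the lowest of the 5 exponential arrays for 19 of 31 members and for 20.7% of all genes, and exponential array 5 was the highest for 13 members and for 17.9% of all genes.

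**Figure D3:**
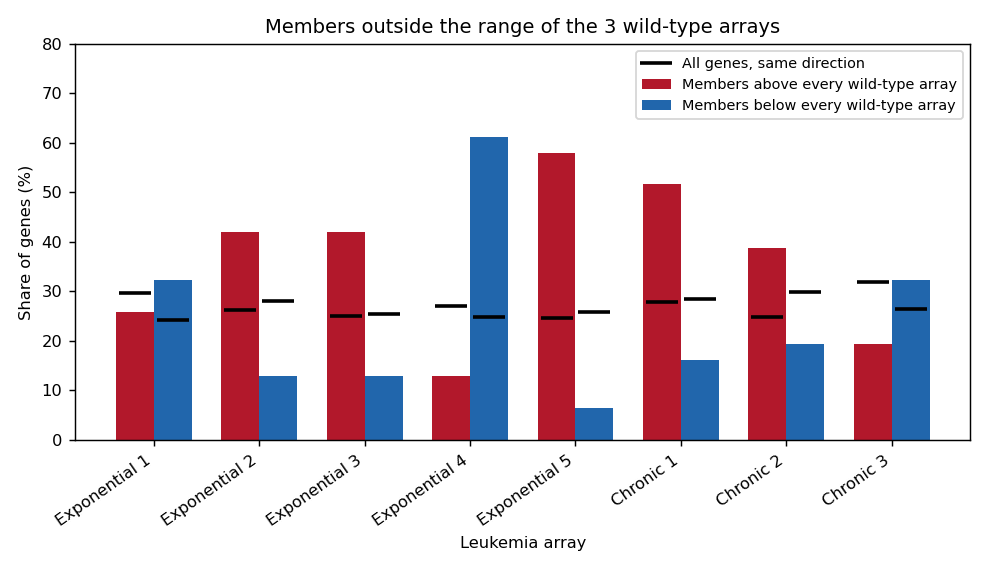
Share of the 31 measured members (%) above every wild-type array (red bars) and below every wild-type array (blue bars) on each leukemia array, with black ticks for the same shares over all 19937 genes. The red bar passes its tick on exponential arrays 2, 3 and 5 and chronic arrays 1 and 2, and the blue bar reaches 61.3% on exponential array 4.

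**Figure D4:**
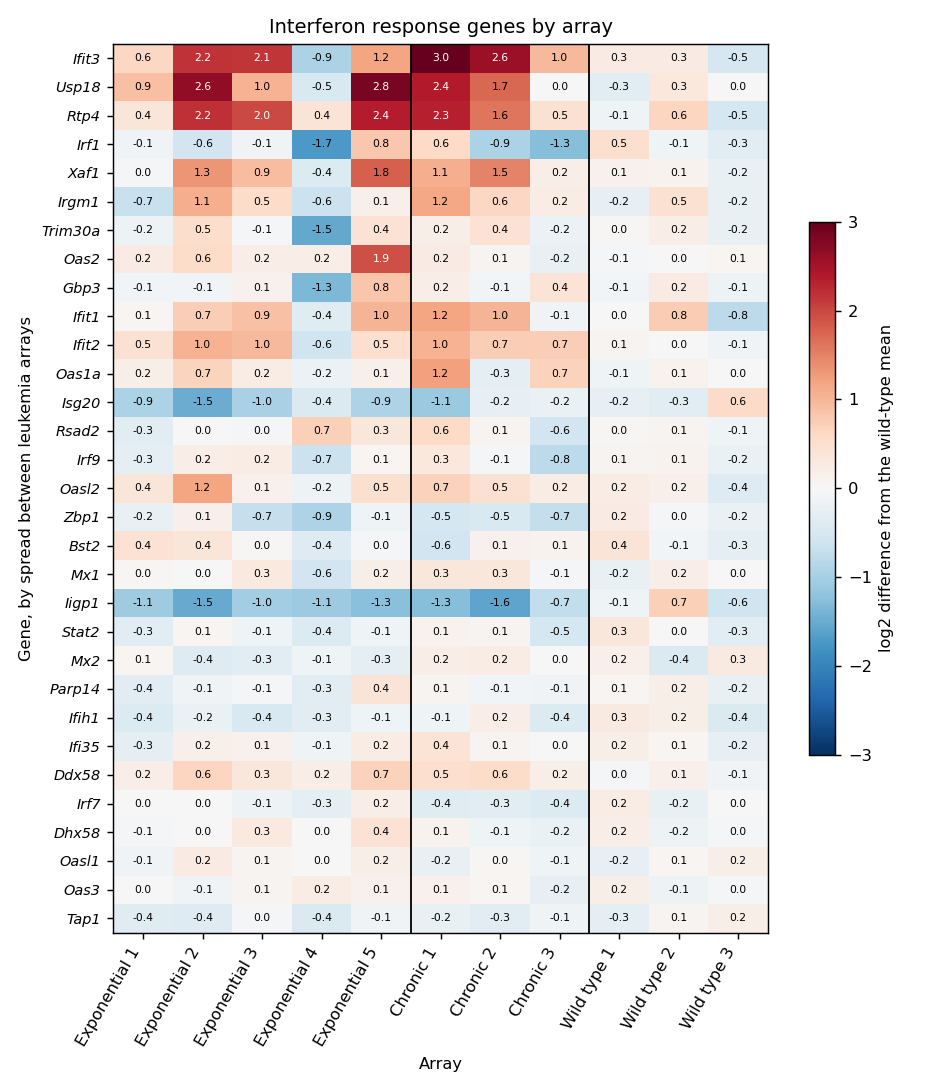
Difference from the wild-type mean (log2, colour and printed values) of each measured member on each array, with genes ordered by their SD over the leukemia arrays. Ifit3, Usp18 and Rtp4 at the top are red on exponential arrays 2, 3 and 5 and chronic arrays 1 and 2, and Iigp1 is blue on all leukemia arrays.

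After each group's mean was taken out, the correlation between members over the 11 arrays had a median of 0.361 over 465 pairs, against 0.01 for all pairs of genes, and of 0.250 without exponential array 4. All pairs share the same 11 arrays, so these values describe the arrays. Usp18, Rtp4, Ifit3, Xaf1, Ifit1 and Irgm1, chosen after their values were seen, correlated with each other at 0.707 (Xaf1 and Irgm1) to 0.922 (Rtp4 and Ifit1), with a median of 0.823, and of 0.778 without exponential array 4. For likeness to the mean of all members the group means were left in, and each member is part of that mean. Isg20 was the member least like the mean of all members (r = −0.60), followed by Iigp1 (r = −0.30), and Xaf1 was the most like it (r = 0.91). Without exponential array 4 the values were −0.70 for Isg20, −0.47 for Iigp1 and 0.91 for Xaf1, and Rtp4 was the most like the mean (r = 0.93).

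Outside the list, the 5 genes whose levels followed the members' mean most closely over the 11 arrays were Cdc14b, a phosphatase gene (r = 0.962), Dock9, an activator of the GTPase CDC42 (0.928), Crtam, a receptor of activated CD8 T-cells (0.926), Dtx3l, a ubiquitin ligase that partners with PARP9 (0.923), and Rpa2, a subunit of the single-stranded DNA binding protein RPA (0.912). Without exponential array 4 their r lay between 0.853 (Rpa2) and 0.948 (Cdc14b). Crtam was at 4.59, 6.34, 5.68, 2.64 and 5.75 on exponential arrays and at 6.12, 5.21 and 3.66 on chronic arrays, against 4.34, 3.83 and 3.51 in wild type. Exponential array 4 and chronic array 3 were its lowest leukemias.

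Marker lists of other cells that can make or answer interferon are given beside this pattern, and their part in it was not tested. The B-cell list (6 of 7 measured) had mean levels of 3.06 to 4.66 on exponential, 2.68 to 3.85 on chronic and 2.85 to 4.08 on wild-type arrays, and was highest on exponential array 1, where the interferon response genes were near wild type. The conventional dendritic cell list (5 of 5) had mean levels of 2.23 to 3.00, 2.09 to 2.36 and 2.11 to 2.45 in the exponential, chronic and wild-type groups. The list was highest on exponential arrays 2 (3.00) and 5 (2.80), both with high Usp18, while chronic array 1, also with high Usp18, was at 2.36, within the wild-type range. On exponential array 2 only Clec9a (4.39) and Xcr1 (3.19) of the list lay above every wild-type array. On exponential array 5 only Itgax (3.70) and Xcr1 (2.62) did. Chronic arrays 1 and 2 had only Itgax above (2.65 and 3.07), and exponential array 3 had Itgax (2.25) and Zbtb46 (2.52). The remaining leukemia arrays had no gene of the list above, except Zbtb46 (2.31) on exponential array 1. The plasmacytoid dendritic cell list (3 of 4) had mean levels of 2.29 to 2.53 on exponential, 2.39 to 2.70 on chronic and 2.63 to 3.07 on wild-type arrays. Its marker Siglech lay below the median row on every array, while Tcf4 lay between 2.57 and 4.29 and Ccr9 between 1.76 and 3.50. The CD8 T-cell list, Cd8a and Cd8b1, had a mean of 3.65 on exponential array 4 and of 7.43 on chronic array 3, against 8.28 to 8.66 on the other 6 leukemia arrays and 6.68 to 8.35 on wild-type arrays. The CD4 T-cell list (3 of 3) had a mean of 3.65 on exponential array 4, of 2.14 to 2.33 on the other exponential arrays and of 1.98 to 2.54 on chronic arrays, against 3.82 to 4.16 on wild-type arrays. The NK cell list (2 of 2) lay between 1.58 and 1.98 on exponential and 1.72 and 1.81 on chronic arrays, against 1.80 to 2.69 on wild-type arrays. The mean of the CD4 T-cell list was lower on all 8 leukemia arrays than on any wild-type array, as Iigp1 was, and the NK cell list overlapped. The CD4 T-cell genes split on exponential array 4, where Cd4 was at 5.18, against 4.21 to 4.62 in wild type. Cd40lg (3.54) and Foxp3 (2.24) lay below every wild-type array there.

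Of 87 further genes of the pathway, listed by role, 75 were measured. In exponential against wild type 0 were called higher and 1 lower, beside 0.416% of all genes in either direction, in chronic against wild type also 0 and 1, beside 0.456%, and in all leukemias against wild type 1 and 2, beside 0.722%. Cxcl10, a chemokine gene induced by interferon gamma, was the gene called lower in each phase. It lay at 3.59, 2.36, 3.23, 2.33 and 3.30 on exponential arrays and at 3.40, 2.26 and 2.71 on chronic arrays, against 5.60, 5.21 and 4.95 in wild type, with no overlap. The mean of the CD4 T-cell list was lower on the same arrays, but Cd4 itself was not lower on exponential array 4. The part of CD4 T-cells in the lower levels of Iigp1, Cxcl10 and Jak2 was not tested. Jak2, the kinase of the interferon gamma receptor, was called lower in all leukemias, by 0.87 ± 0.15 (SE) on the log2 scale (limma adjusted p = 0.0187), at 6.49 to 6.91 on exponential and 6.25 to 6.60 on chronic arrays against 7.20 to 7.75 in wild type. Pnpt1, a mitochondrial exonuclease of RNA, was called higher in all leukemias, by 1.09 ± 0.20 (limma adjusted p = 0.0277), with 5.31 to 5.92 on exponential and 5.83 to 6.09 on chronic arrays against 4.09 to 5.08 in wild type.

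Among the interferon genes themselves, Ifnb1, Ifna4, Ifnk and Ifne lay below the median row on all 11 arrays, and Ifna2 lay between 1.87 and 2.71. No detection calls were used, so these levels do not say whether the genes were transcribed. Ifng was at 7.65, 7.04, 8.98, 2.38 and 7.21 on exponential arrays and at 7.90, 5.12 and 5.67 on chronic arrays, against 7.61, 7.45 and 6.56 in wild type. Exponential array 4 was the lowest for this gene too, while chronic array 2, where Usp18 and Rtp4 were high, had less Ifng than any wild-type array. The type I receptor genes Ifnar1 and Ifnar2 and the kinase gene Tyk2 were not called in any comparison.

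Of the 6 members chosen after their values were seen and correlated over the 11 arrays, Ifit3, Ifit1 and Irgm1 held ISRE cores. Their promoters are shown, from 250 bases before to 50 after the transcription start (RefSeq, GRCm38.p6, on the gene's strand). The window of Xaf1 held neither the ISRE core nor the GAS core, TTCNNNGAA, and Usp18 and Rtp4 were not in the promoter table. Capitals mark matches to the ISRE core, written GAAANNGAAA, or TTTCNNTTTC when it lies on the other strand. The windows lie at chr19:34583279-34583578 for Ifit3 and chr19:34640639-34640938 for Ifit1, both on the plus strand, and at chr11:48871371-48871670 on the minus strand for Irgm1.
Ifit3: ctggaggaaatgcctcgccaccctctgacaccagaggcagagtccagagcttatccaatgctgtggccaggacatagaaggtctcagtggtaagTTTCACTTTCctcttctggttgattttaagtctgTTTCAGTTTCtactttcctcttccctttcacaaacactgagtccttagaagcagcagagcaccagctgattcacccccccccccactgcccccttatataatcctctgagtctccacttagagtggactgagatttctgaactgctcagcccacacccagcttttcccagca
Ifit1: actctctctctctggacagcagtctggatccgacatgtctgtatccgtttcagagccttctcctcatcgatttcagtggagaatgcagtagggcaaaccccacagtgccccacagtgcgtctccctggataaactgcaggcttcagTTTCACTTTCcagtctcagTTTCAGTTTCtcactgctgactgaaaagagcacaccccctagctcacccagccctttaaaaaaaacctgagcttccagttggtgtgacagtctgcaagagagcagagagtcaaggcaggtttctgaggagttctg
Irgm1: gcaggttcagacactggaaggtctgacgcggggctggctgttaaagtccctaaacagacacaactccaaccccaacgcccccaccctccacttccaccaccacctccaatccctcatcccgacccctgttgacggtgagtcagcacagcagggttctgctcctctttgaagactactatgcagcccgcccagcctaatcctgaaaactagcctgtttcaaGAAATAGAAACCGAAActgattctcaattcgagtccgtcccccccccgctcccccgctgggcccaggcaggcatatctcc
Ifit3 held matches at 156 to 147 and at 122 to 113 bases before the start, Ifit1 at 104 to 95 and at 85 to 76 bases before it, and Irgm1 a pair that overlap, at 30 to 21 and at 24 to 15 bases before it.

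Of the 31 measured members 22 were found in the promoter table by symbol. The ISRE core was in the windows of 12 of the 22 (54.5%) and of 3.99% of all 27025 genes in the table. The GAS core, TTCNNNGAA, which reads the same on both strands, was in 6 of the 22 (27.3%) and in 9.55% of all genes, and the 2 cores were both present in Oas1a and Bst2. Members with the ISRE core included Trim30a and Gbp3, with a high spread between leukemias, as well as Oas3 and Stat2, which were not among the top 10%. Isg20 and Irf1 held the GAS core and no ISRE core, as did Ifit2 and Ifi35. A match describes the letters of a window and is not evidence of a bound site, and members were listed for a response that these elements are known to carry.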

How the data were processed

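Levels were taken from the series' table of processed values for 11 arrays (5 exponential, 3 chronic, 3 wild type), grouped by their titles. These deposited values are log2 levels. By the methods and the labels, the authors used RMA for background correction and then quantile normalization, in R's affy package (version not given in the sources used here). Quantile normalization gave every array the same distribution, with a minimum of 0.775 and a maximum of 13.5, so a change shared by most genes cannot be seen. The number of arrays limits the precision, and detection calls were not used.

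Of 34760 rows, 21640 carried a single symbol in the platform annotation, 1321 several and 11799 none. Rows with a single symbol were used, and 954 genes had more than 1 such row, of which the brightest on average was kept, which left 19937 genes. Identifiers of 19855 genes, and of all 31 measured members, were found in the RefSeq gene table (GRCm38.p6).

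A separate limma fit was made for each comparison on its own groups (lmFit and eBayes at their defaults, limma 3.58.1, R 4.3.3), after tests on simulated data. Differences are the first-named group minus the second, with moderated standard errors. Means and SDs are between arrays. The labels do not say whether each leukemia array was a separate mouse, so p-values reflect how far these arrays spread, which may be technical. The alternatives were the replicate number as a block, a fit over all 3 groups, the dimmest 30% of genes left out, array weights, robust estimation with a variance trend, the methods' t-test with Benjamini-Hochberg adjustment, cyclic loess, median centring, rows of a gene averaged, all rows tested, no fold threshold, exponential 4 and chronic 1 both left out, and each array left out in turn.

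Every array is given for members called in any comparison or with an unadjusted limma p under 0.05 and a fold of at least 1.5 in a comparison of the phases with wild type or with each other (8 genes). Values of Ddx58, Oas2, Crtam and Ifng were added after they were seen. Members, pathway genes, markers and motifs were chosen with earlier results of these data known.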

Additional observations from a re-analysis of the deposited data

Results flagged for a closer look

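Within the exponential group, Oas2 on array 5 stood far from the other arrays, at 4.37 against 2.64 to 3.00. Its gap to the nearest array was 0.791 of the whole range of the group, over the critical value of 0.71 for 5 arrays. Among the 31 members tested in this way in the exponential group, 1 passed, where chance gives about 1.55.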

How the results depend on the processing

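In exponential against wild type and in exponential against chronic, 0 members were called under every alternative. In chronic against wild type 1 member was called with array weights (Ifit2) and 1 with the replicate block (Ifit3), and 0 to 3 were when an array was left out, with 3 (Ifit3, Xaf1 and Usp18) without chronic replicate 3. In all leukemias against wild type, where Iigp1 was the single member called, 0 were called with 1 fit over all 3 groups, with the methods' t-test (Benjamini-Hochberg adjusted) and with all rows tested, and 0 to 2 were when an array was left out, with 2 (Iigp1 and Ifit2) without exponential replicate 4. The count stayed at 1 with the replicate block and with exponential 4 and chronic 1 both left out, but the gene was Ifit2 in place of Iigp1. Exponential array 4 does not enter the difference in either setting, since with the block no array of another group shares its number. The causes were not tested.

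Replicate numbers were not taken to pair the arrays, since neither the labels nor every same-number pair bore it out. Deviations of arrays with the same number correlated at −0.04 to 0.18, with 4 of 9 pairs above 0.1, and those with different numbers at −0.23 to 0.10, with 1 of 18 above 0.1. The replicate block gave 139 called genes in place of 83 in exponential and 110 in place of 91 in chronic against wild type. In all leukemias against wild type it gave 264 in place of 144, and ended the call of Iigp1 (adjusted p = 0.103, limma). With the block, exponential arrays 4 and 5 do not enter the differences, since no array of another group shares their numbers. Leaving out exponential array 4 alone gave 221 called genes in exponential and 273 in all leukemias against wild type. Leaving out exponential array 5 alone gave 37 and 120. The part of pairing in the counts with the block was not tested. With the replicate block the median difference of the members was 0.07 in exponential, 0.03 in chronic and 0.08 in all leukemias against wild type, and −0.03 in exponential against chronic. Over all alternatives it lay between −0.02 and 0.12 in exponential, 0.01 and 0.16 in chronic and 0.01 and 0.12 in all leukemias against wild type, and between −0.22 and 0.09 in exponential against chronic, so its sign changed in exponential against wild type and exponential against chronic.

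Of single named genes, Irgm1 (0.09 with all arrays, −0.15 to 0.33 when an array was left out) changed sign in exponential against wild type, to −0.15 without exponential replicate 2, −0.02 without exponential replicate 3, −0.03 without wild-type replicate 1 and −0.01 without wild-type replicate 3. Of the 488 values of named members under alternatives, 463 kept their direction and side of the threshold. With all arrays only Iigp1 in all leukemias was called, so for the other results keeping the side meant staying uncalled. The call of Iigp1 itself held in 10 of 23 alternatives. Median centring changed nothing, since the arrays share their median. Chosen after seeing the data, leaving out exponential replicate 4 gave a median correlation between members of 0.250.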
